A study of Mus musculus with 53 samples.

Results

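Cortical excitatory neuron genes were followed in brainstem, cerebellum, cortex and striatum of mice that model spinocerebellar ataxia type 3 (SCA3) and of wild-type mice, with the cortex as the main region. The genes were a list of 8 symbols: Slc17a7, Tbr1, Neurod6, Neurod2, Cux2, Rorb, Lamp5 and Nrgn. Members were the rows of the count table that carried 1 of these symbols, which gave 7 of 12372 genes; Tbr1 was not analysed here. The 53 libraries came from 14 mice, with 1 library per mouse and region. Wild-type C57BL/6 mice gave 7 cortex, 8 striatum, 8 brainstem and 7 cerebellum libraries, and SCA3 mice gave 6, 5, 6 and 6. SCA3 mice were hemizygous MJD84.2 animals on the same strain, carrying a full-length human ATXN3 transgene whose CAG repeat is expanded, driven in all tissues by its own human promoter, next to their own mouse Atxn3. All mice were male, 74 to 77 weeks old, received no treatment, and had been through motor tests earlier in life; those SCA3 mice that died before the end of the study gave no brain tissue. A library is named by its region, genotype and mouse number.

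Excitatory neurons of the cerebral cortex release glutamate, which they load into synaptic vesicles with vesicular transporters. They arise from progenitors of the dorsal forebrain under a cascade of transcription factors that includes Tbr1 and the Neurod family, and settle in layers that differ in gene expression. Slc17a7 encodes the vesicular glutamate transporter VGLUT1. Neurod2 and Neurod6 are basic helix-loop-helix (bHLH) transcription factors of maturing and adult excitatory neurons, which bind the E-box motif CANNTG. Cux2 is a homeobox factor of the upper layers, Rorb a nuclear receptor of layer 4, Lamp5 a lysosome-associated membrane protein of upper-layer neurons and of a class of interneurons, and Nrgn (neurogranin) a postsynaptic protein that binds calmodulin. Outside the cortex, Slc17a7 and Neurod2 are also known in cerebellar granule cells and Rorb in thalamic neurons.

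The 7 genes were placed on the mouse genome GRCm38 by RefSeq: Slc17a7 at chr7:45163921-45176139, Neurod6 at chr6:55677818-55681263, Neurod2 at chr11:98325415-98329645, Cux2 at chr5:121857962-122050415, Rorb at chr19:18930609-19111196, Lamp5 at chr2:136052025-136069917 and Nrgn at chr9:37544493-37552745. None of them shared exon bases with another annotated gene in GENCODE vM21, although 1 other gene overlapped the span of Slc17a7 and 2 that of Cux2. This matters because the reads were counted without strand. The 250 bases before the transcription start were examined for E-boxes, because 2 of the members bind this motif. RefSeq (GRCm38.p6) gave 10 such windows for the 7 members, and 9 of the 10 held CANNTG, which is its own reverse complement and so covers both strands; every member had at least 1 window with it, and among all 32851 promoter windows of the same length 66.2% held it. The variant CAGATG, or CATCTG on the other strand, was in 3 of the 10 windows (1 each of Neurod2, Cux2 and Nrgn), against 14.4% of all windows. These matches are descriptions of letters, not of binding. The windows of Slc17a7, Neurod6 and Neurod2 are shown because these 3 members moved together in each of the regions below, and that of Nrgn because it moved with them in cortex and apart from them in cerebellum. Each runs 5′ to 3′ on the gene's strand, with E-boxes in capitals. The window of Slc17a7 (chr7:45163671-45163920, plus strand) holds 1 E-box, that of Neurod6 (chr6:55681264-55681513, minus strand) 2, that of Neurod2 (chr11:98329646-98329895, minus strand) 3 and that of Nrgn (chr9:37552746-37552995, minus strand) 1.
Slc17a7: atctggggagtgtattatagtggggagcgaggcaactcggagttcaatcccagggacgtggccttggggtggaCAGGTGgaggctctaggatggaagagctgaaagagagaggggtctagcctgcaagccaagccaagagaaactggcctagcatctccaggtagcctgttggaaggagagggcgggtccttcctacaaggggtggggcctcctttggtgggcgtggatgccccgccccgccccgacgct
Neurod6: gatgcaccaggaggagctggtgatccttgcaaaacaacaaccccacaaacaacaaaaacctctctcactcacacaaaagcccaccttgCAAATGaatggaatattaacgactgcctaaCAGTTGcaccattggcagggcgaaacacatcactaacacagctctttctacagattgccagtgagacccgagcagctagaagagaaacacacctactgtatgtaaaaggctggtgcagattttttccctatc
Neurod2: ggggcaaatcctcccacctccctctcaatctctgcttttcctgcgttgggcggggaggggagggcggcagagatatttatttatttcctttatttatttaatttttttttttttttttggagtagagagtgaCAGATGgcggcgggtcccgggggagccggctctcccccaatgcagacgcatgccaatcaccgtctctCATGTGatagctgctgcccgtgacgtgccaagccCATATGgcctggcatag
Nrgn: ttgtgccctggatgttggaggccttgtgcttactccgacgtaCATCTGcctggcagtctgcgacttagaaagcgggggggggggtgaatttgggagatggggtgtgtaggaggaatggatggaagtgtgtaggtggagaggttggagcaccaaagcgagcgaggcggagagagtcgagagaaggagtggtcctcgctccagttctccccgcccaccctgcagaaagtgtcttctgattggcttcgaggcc

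Library totals lay between 31.7 and 76.7 M counts, and the lowest count of any member in any library was 14, so no member was at 0. RNA integrity numbers (RIN) were 7.7 to 8.2 in cortex and 5.7 to 9.0 in striatum. Some libraries stood apart from others of their region in markers of another cell type. Thalamus markers, of which 11 of 12 listed genes were measured and none was at 0 in any library, summed to 1449.6 and 2348 CPM (counts scaled to each library’s total, adjusted by the TMM method) in wild-type striatum 7267058 and 7267059, and to between 192 and 453 CPM in the other 11 striatum libraries. By a rule chosen after seeing the data, 8 libraries whose mean log2 level of these markers exceeded that of their region by more than 0.5 were left out in an added alternative, which kept 6 wild-type and 5 SCA3 libraries in cortex, 6 and 4 in striatum, 7 and 4 in brainstem and all in cerebellum. In striatum the rule left out SCA3 9082853, just above the cut (0.51, 428 CPM summed), besides wild-type 7267058 and 7267059. Wild-type 9083373, just below the cut (0.48, 453 CPM summed), was kept. The Atxn3 gene of the count table had a median of 43.4 CPM in wild-type and 48.2 CPM in SCA3 cortex (log2 fold change 0.14, edgeR FDR = 0.98), and was called higher in SCA3 mice in striatum alone (0.33, FDR = 0.00012); whether reads of the human transgene were counted there was not tested.

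The cortex was the region with the highest mean level for 5 of the 7 members in wild-type mice (Slc17a7, Neurod6, Cux2, Rorb and Nrgn), while Neurod2 was highest in cerebellum and Lamp5 in brainstem. To ask in which region each gene is most abundant, wild-type groups were compared with edgeR's likelihood ratio test, and a false discovery rate (FDR, Benjamini-Hochberg over 12372 genes) below 0.05 was called. Against striatum 4 of 7 members were called higher in cortex, where 17.5% of all genes were called higher. Against brainstem 5 of 7 were called higher, beside 34.3% of all genes, and against cerebellum 6 of 7, beside 35.5%. No member was called lower in cortex in any of these comparisons. The median log2 fold change of the members was 1.2 against striatum, 2.3 against brainstem and 1.6 against cerebellum, and that of all genes between 0.00 and 0.02. Because these are bulk samples, fewer cells of a type and less RNA per cell cannot be told apart.

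Slc17a7 had a wild-type level of 358 to 1630.0 CPM in cortex (median 1209, n = 7), 283 to 497 CPM in cerebellum (median 324, n = 7), 11.8 to 598 CPM in striatum (median 65.6, n = 8) and 9.54 to 199 CPM in brainstem (median 63.4, n = 8). The lowest cortex library thus lay within the ranges of cerebellum and striatum and above that of brainstem. Its log2 difference of cortex over striatum was 2.77 (SE 0.61, edgeR FDR = 0.00017), over brainstem 3.41 (SE 0.61, FDR = 8.2e-07) and over cerebellum 1.45 (SE 0.63, FDR = 0.037). The last call did not pass in the quasi-likelihood F test (FDR = 0.055), in limma-voom (FDR = 0.16) or in the largest mouse number series alone (FDR = 0.16), and was lost when any of the wild-type mice 7267058, 9082857, 9083372 and 9083373 was left out (FDR up to 0.084). It passed in a fit of the libraries of both regions alone (FDR = 5.7e-07), and with the mouse as a block in limma-voom it had an FDR of 0.13.

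The bHLH factors Neurod6 and Neurod2 were at similar levels in cortex but not in cerebellum. Neurod6 was at 5.70 to 88.2 CPM in wild-type cortex (median 43.6), at 5.83 to 9.47 CPM in cerebellum, at 1.99 to 8.27 CPM in brainstem and at 0.249 to 49.0 CPM in striatum. It was called higher in cortex than in each of the other regions, with log2 differences of 2.26 over striatum (SE 0.65, FDR = 0.0038), 3.13 over brainstem and 2.61 over cerebellum. With 1 mouse left out, the Neurod6 difference over striatum ran from 1.87 to 3.45. Neurod2 was at 13.3 to 75.0 CPM in wild-type cortex (median 56.6) and at 69.9 to 137 CPM in cerebellum (median 93.1), and these ranges overlapped slightly. Its difference of cortex over cerebellum, −1.14 (SE 0.66, FDR = 0.12), was not called, but the same contrast was called in limma-voom (−1.36, FDR = 0.0083, or 0.0059 with the mouse as a block) and in a fit of the libraries of both regions alone (−1.15, FDR = 0.0014). Over striatum the Neurod2 difference was 2.46 (SE 0.64, FDR = 0.0014, and 2.13 to 3.70 with 1 mouse left out) and over brainstem 2.3 (SE 0.64, FDR = 0.001). In the largest mouse number series alone (4 wild-type mice in cortex and in striatum) the differences over striatum were not called for Slc17a7 (2.15, FDR = 0.052), Neurod6 (1.16, FDR = 0.40) and Neurod2 (1.55, FDR = 0.23), nor was that of Neurod2 over brainstem (1.60, FDR = 0.091).

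The layer markers Cux2 and Rorb had smaller estimated differences of cortex over striatum and over brainstem than Slc17a7, Neurod6 and Neurod2, but not in each case over cerebellum. Cux2 was at 42.7 to 99.8 CPM in wild-type cortex and was called higher there than in striatum (16.2 to 56.3 CPM, log2 difference 1.22, SE 0.19, FDR = 1.9e-08), brainstem (33.9 to 49.2 CPM, 0.87) and cerebellum (37.3 to 53.8 CPM, 0.70). Rorb was at 24.5 to 74.2 CPM in wild-type cortex, 20 to 92.7 CPM in striatum and 25.5 to 50.1 CPM in brainstem, and these overlapping groups were not called different; in cerebellum it was at 9.69 to 17.0 CPM, and cortex was called higher (log2 difference 1.59, SE 0.26, FDR = 8.1e-09). The 2 wild-type striatum libraries highest in thalamus markers were also the 2 highest in Rorb, at 74.2 and 92.7 CPM. Without the libraries high in thalamus markers Rorb was called higher in cortex than in striatum (log2 difference 0.84, FDR = 0.00011, against 0.10 with them) and than in brainstem (0.54, FDR = 0.0059, against 0.33).

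Lamp5 and Nrgn were both far lower in cerebellum than in cortex, but stood differently in the other regions. Wild-type Lamp5 was at 60.7 to 282 CPM in cortex (median 102), 31.6 to 96.7 CPM in striatum, 19.3 to 246 CPM in brainstem (median 183) and 1.74 to 18.8 CPM in cerebellum. Only the comparison with cerebellum was called among those of cortex (log2 difference 4.25, SE 0.54, FDR = 3.3e-11); that with striatum, 1.07 (SE 0.53, FDR = 0.10), was called in the fit of these regions alone (FDR = 0.019). Nrgn was at 297 to 1622 CPM in wild-type cortex, 144 to 877 CPM in striatum, 18.4 to 230.2 CPM in brainstem and 3.77 to 72.5 CPM in cerebellum. Cortex was called higher than brainstem (3.89, SE 0.58, FDR = 4.8e-09) and cerebellum (4.46, SE 0.60, FDR = 4.1e-10) but not than striatum (0.76, SE 0.58, FDR = 0.32; 0.40 without wild-type 9083373 and 1.07 without wild-type 9083371, neither called).

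**Figure D1:**
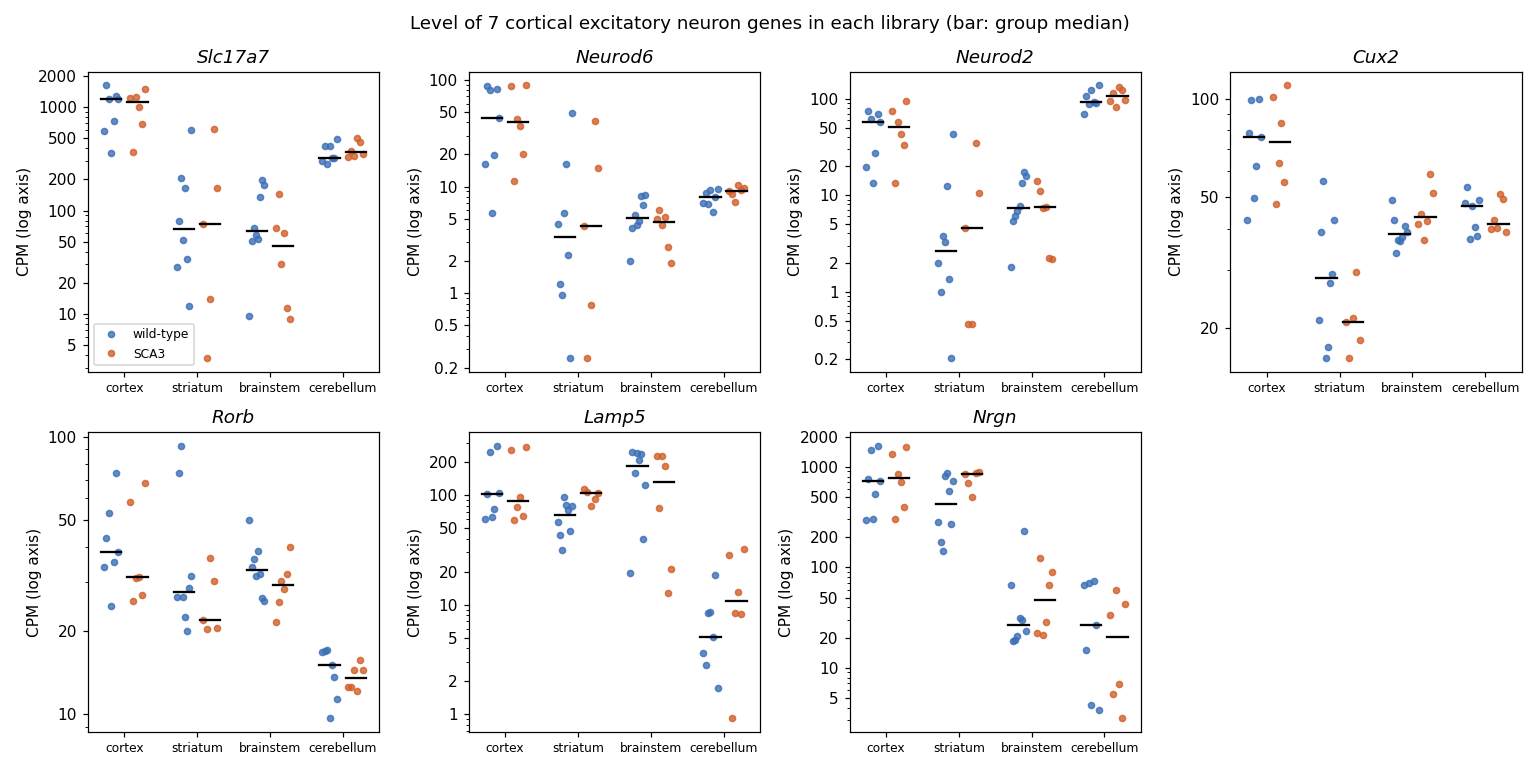
Level of each member in each of the 53 libraries, in CPM on a log axis, by region and genotype (blue wild-type, orange SCA3); a point is a library and the black bar is the group's median. Wild-type and SCA3 points overlap in every region for every member, and the 13 cortex libraries range from 358 to 1630.0 CPM for Slc17a7 and from 5.70 to 88.5 CPM for Neurod6.

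Ordered by mean log2 CPM in wild-type mice, each region was compared with the next one below it for each member, 21 neighbouring pairs in all. The comparison called 8 of the 21 pairs. Among all genes 34.4% differed between cortex and striatum, 65.4% between cortex and brainstem, 69.7% between cortex and cerebellum, 64.2% between striatum and brainstem, 69.5% between striatum and cerebellum and 72.6% between brainstem and cerebellum. For Slc17a7 the order was cortex, cerebellum, striatum, brainstem, and only striatum and brainstem were not distinguished (log2 difference 0.64, SE 0.59, FDR = 0.34). For Neurod6, cerebellum, brainstem and striatum were not distinguished; the mean of logs put brainstem above striatum while the fitted difference was −0.87 (SE 0.62, FDR = 0.22), as a few striatum libraries were high. Neurod2 was split into cerebellum and cortex above brainstem and striatum, Cux2 into cortex above the 3 other regions, Rorb into cortex, striatum and brainstem above cerebellum, Lamp5 into brainstem, cortex and striatum above cerebellum, and Nrgn into cortex and striatum above brainstem and cerebellum. Within each of these sets neighbours were not called different, but 2 pairs that are not neighbours were: Lamp5 was lower in striatum than in brainstem (−1.32, SE 0.51, FDR = 0.018) and Cux2 lower in striatum than in cerebellum (−0.52, SE 0.19, FDR = 0.011).

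Per kilobase of exon in wild-type cortex, Nrgn was at 562 ± 366 CPM per kb (SD, n = 7), Slc17a7 at 186 ± 83.5 CPM per kb, Lamp5 at 45.5 ± 31.4 CPM per kb and Neurod6 at 22.3 ± 16.3 CPM per kb. Neurod2 followed at 14.6 ± 8.02 CPM per kb, Cux2 at 7.21 ± 2.22 CPM per kb and Rorb at 3.90 ± 1.46 CPM per kb. Nrgn and Slc17a7 were thus the most abundant members per length and the transcription factors the least, and within the 7 libraries each gene exceeded the next in this order in all 7 for Nrgn over Slc17a7, Slc17a7 over Lamp5 and Cux2 over Rorb, and in 6 of 7 for the other 3 neighbours.

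To ask whether mutant ataxin-3 altered these genes in the cortex, SCA3 was compared with wild-type there. None of the 7 members was called, and none had an unadjusted p below 0.05, where 0.154% of all genes were called and 503 of 12372 had an unadjusted p below 0.05. The quasi-likelihood F test, DESeq2 and limma-voom called 0 members as well. Slc17a7 was at 366 to 1495 CPM in SCA3 cortex (median 1121, n = 6) against 358 to 1630.0 CPM in wild-type (median 1209, n = 7), so the groups overlapped over nearly their whole ranges. The log2 fold change of SCA3 over wild-type was 0.015 when the cortex libraries were fitted alone (95% interval −0.68 to 0.71), and 0.014 with an interval of −1.28 to 1.31 in the fit of all libraries. The second interval is wider because the spread of a gene was estimated over all regions.

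SCA3 cortex held 11.3 to 88.5 CPM of Neurod6 (median 39.9) and 13.5 to 94.3 CPM of Neurod2 (median 50.5), and wild-type cortex 5.70 to 88.2 CPM (median 43.6) and 13.3 to 75.0 CPM (median 56.6). Fitted in cortex alone, their log2 fold changes were −0.001 (95% interval −1.15 to 1.15) and 0.20 (−0.68 to 1.08). For both bHLH factors the groups overlapped, each genotype held libraries at both ends of the range, and both intervals included a log2 fold change of 1. Cux2 was at 47.7 to 109.7 CPM in SCA3 and 42.7 to 99.8 CPM in wild-type cortex (log2 fold change 0.087, −0.38 to 0.55). Rorb was at 25.6 to 68.1 CPM in SCA3 and 24.5 to 74.2 CPM in wild-type cortex (−0.10, −0.66 to 0.46). These layer factors had the narrowest intervals of the 7.

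Lamp5 was at 59.0 to 274 CPM in SCA3 cortex (median 87.4) and 60.7 to 282 CPM in wild-type cortex (median 102), with a log2 fold change of 0.056 (−0.87 to 0.98) in cortex alone. Nrgn was at 303 to 1593 CPM in SCA3 cortex (median 780) and 297 to 1622 CPM in wild-type cortex (median 725), with 0.091 (−0.81 to 0.99). Both genotypes thus held libraries at either end of the scale. The median log2 fold change over the 7 members in cortex was 0.053, and 0 of the 7 had an FDR under 1 in the fit of all libraries.

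**Figure D2:**
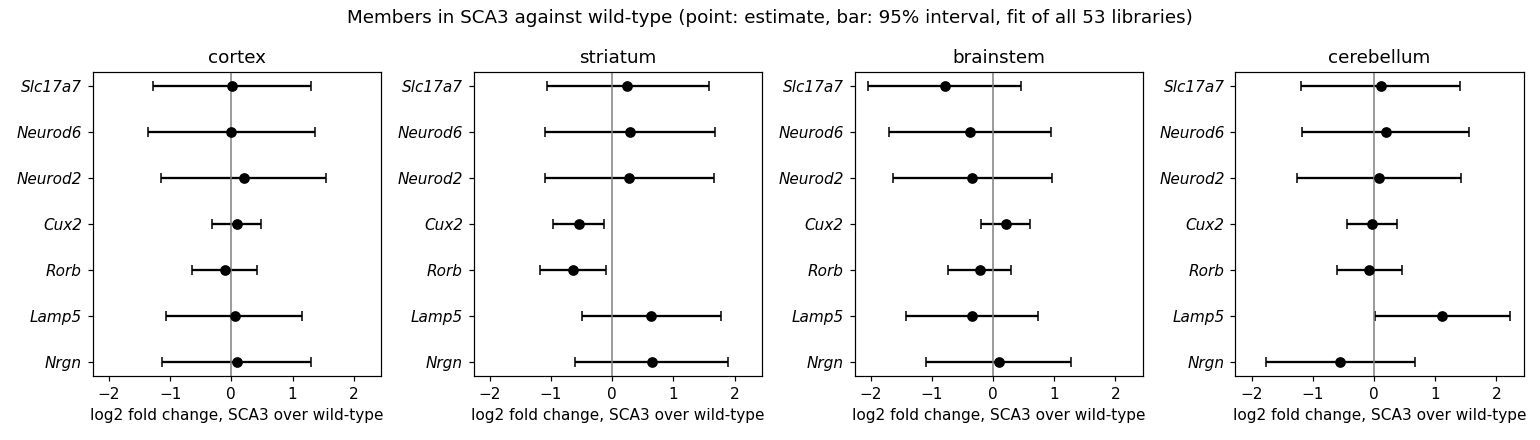
Log2 fold change of SCA3 over wild-type for each member in each region, from the fit of all 53 libraries; points are estimates and bars are 95% intervals. Every cortex estimate lies between −0.11 and 0.20, and the intervals of Cux2 and Rorb in striatum and of Lamp5 in cerebellum are the only ones that leave out 0 in this fit. With each region fitted alone those 3 intervals included 0 (−1.11 to 0.011, −1.37 to 0.098 and −0.09 to 2.34), and that of Lamp5 in striatum left it out.

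The members differed far more between cortex libraries of the same genotype than between genotypes. After subtracting each genotype's mean, the SD of log2 CPM over the 13 cortex libraries was 0.77 for Slc17a7, 1.36 for Neurod6, 1.00 for Neurod2, 0.48 for Cux2, 0.55 for Rorb, 0.95 for Lamp5 and 0.96 for Nrgn. The median SD of all genes was 0.17, and between 0.32% and 7.5% of genes varied more than these members. The highest cortex library held 4.56 times the Slc17a7 of the lowest and 15.5 times the Neurod6. All 21 pairs of members were positively correlated over the 13 cortex libraries, with Pearson r from 0.69 (Slc17a7 and Lamp5) to 0.98 (Slc17a7 and Neurod2) and a median of 0.89; these libraries share the region and the scaling to library totals, and the values are a description. The r among Slc17a7, Neurod6 and Neurod2 was 0.96 to 0.98 and that among Cux2, Rorb, Lamp5 and Nrgn 0.88 to 0.96, with values between these sets of 0.69 to 0.92, the highest for Nrgn with Neurod6.

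The libraries at the low end were wild-type 9083371, SCA3 7267056 and wild-type 7267055. In wild-type 9083371 Slc17a7 was at 358 CPM, Neurod6 at 5.70 CPM, Lamp5 at 62.8 CPM and Nrgn at 306 CPM. At the high end, SCA3 9083515 held 1495 CPM of Slc17a7, 88.5 CPM of Neurod6, 274 CPM of Lamp5 and 1593 CPM of Nrgn, followed by wild-type 9083373. Both ends of the order thus held a library of each genotype. In Lamp5 the libraries lay in 2 ranges: 4 of them (wild-type 9082857 and 9083373, SCA3 7267054 and 9083515) were at 248 to 282 CPM and the other 9 at 59.0 to 105 CPM. The same 4 libraries were also the highest in Nrgn (1347 to 1622 CPM, the other 9 at most 852 CPM). So they were in Rorb (53.2 to 74.2 CPM, the others at most 43.1 CPM) and Cux2 (98.8 to 109.7 CPM, the others at most 84.4 CPM). Wild-type 7267058 went with the high libraries in Slc17a7 (1630.0 CPM) and Neurod6 (88.2 CPM) but with the low ones in Lamp5 (102 CPM).

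Some marker lists of other cell types followed or opposed the members across the cortex libraries, and others did neither. The summed thalamus markers ranged from 146 to 303 CPM in wild-type and from 130 to 349 CPM in SCA3 cortex and were highest in SCA3 7267056, wild-type 7267055 and wild-type 9083371; over the 13 libraries their mean log2 level had an r of −0.90 with the mean scaled level of the members. For cerebellar granule cell markers (7 of 10 measured, none at 0, summed level 82.1 to 221 CPM in wild-type and 76.5 to 265 CPM in SCA3) r was −0.97; this list includes Zic1, which is also found in other brain regions, at 140.4 CPM in SCA3 7267056 and 9.43 CPM in wild-type 7267058. Striatal projection neuron markers (11 of 14 measured, none at 0) varied widely, from 929 to 3750.3 CPM in wild-type and from 1059 to 4676 CPM in SCA3 cortex, with an r of −0.41. Choroid plexus markers (3 of 6 measured, none at 0) summed to 20.5 to 1078 CPM in wild-type and 16.8 to 244 CPM in SCA3 cortex, with an r of −0.77. Hippocampus markers (3 of 9 measured, none at 0) summed to 106 to 334 CPM in wild-type and 84.5 to 366 CPM in SCA3 cortex, with an r of −0.65. Markers of neurons in general (12 of 12 measured, 8535 to 12060.1 CPM in wild-type and 8746 to 12926 CPM in SCA3) had an r of 0.91. Cortical interneuron markers had an r of 0.65. For astrocyte, microglia, endothelium and mature oligodendrocyte markers r was −0.33, −0.23, 0.11 and −0.04. RIN had an r of −0.12 and the library total an r of 0.35. The part of these cell types in the members' spread was not tested. Without wild-type 9083371 and SCA3 7267056, which were the cortex libraries left out for their thalamus markers, the cortex log2 fold changes lay between −0.10 (Rorb) and 0.24 (Neurod2) and none was called.

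**Figure D3:**
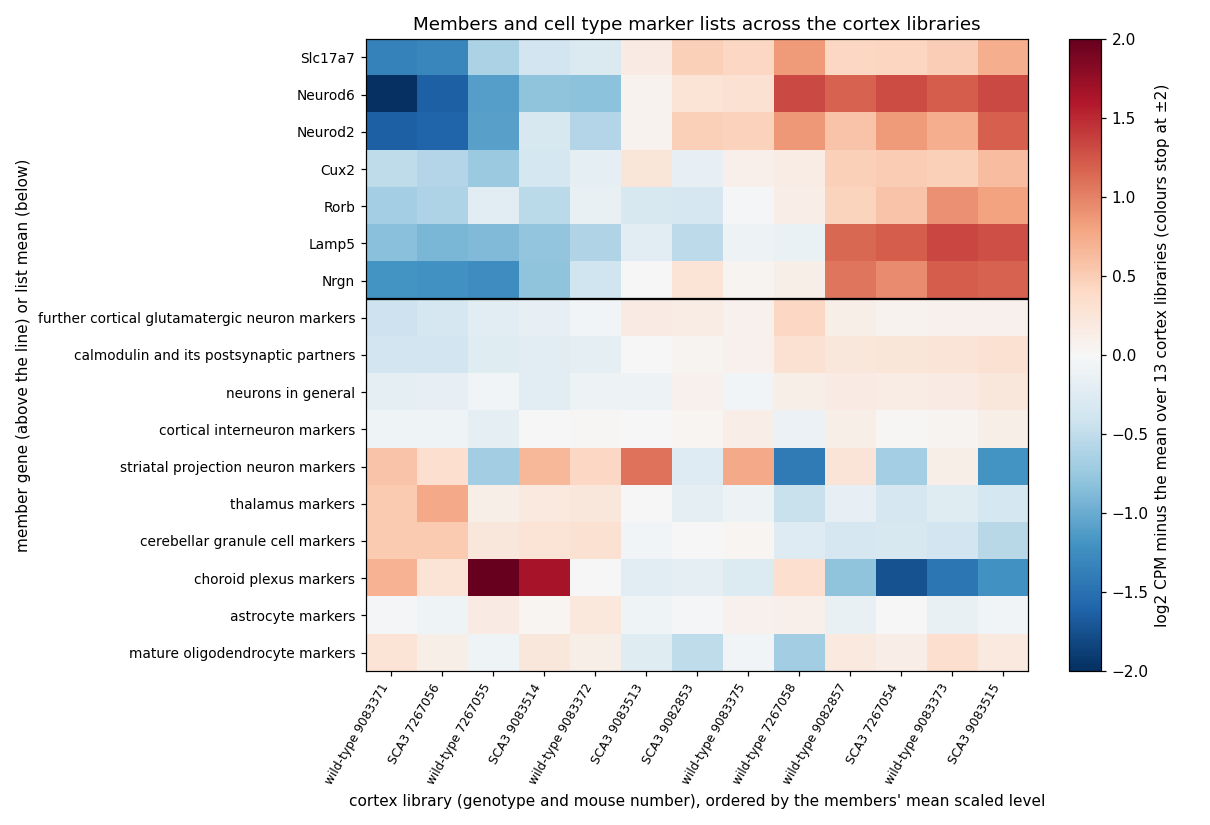
Log2 CPM of each member (above the line) and mean log2 CPM of marker lists (below) in the 13 cortex libraries, each row relative to its mean, with libraries ordered by the members' mean scaled level and colours limited to ±2. The members' mean scaled level is lowest in wild-type 9083371 and highest in SCA3 9083515, although single members have their extremes in other libraries. Thalamus and cerebellar granule cell markers run the opposite way to this mean.

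The genes most like the members across cortex libraries were Pip4k2c (r = 0.992 with the mean scaled level of the members, 13 libraries, each genotype's mean subtracted), Extl1 (0.990), Phf24 (0.988), Dkk3 (0.985) and Fam131b (0.985). Dkk3 ranged from 83.7 to 469.6 CPM in cortex. In all, 544 of 12365 other genes had an r above 0.9 with the members there, and 265 an r below −0.9. Over all 53 libraries, where differences between regions dominate, the 5 genes most like the mean of the members were Cck (0.920), a neuropeptide also used as an interneuron marker, Fam205c (0.911), Clstn1 (0.893), Ppfia3 (0.887) and Gde1 (0.878). The single gene most like each member over the 53 libraries was Rtn4r for Slc17a7 (0.890), Ctgf, a marker of the deepest cortical layer, for Neurod6 (0.860), Prdm8 for Neurod2 (0.934), Syngr1 for Cux2 (0.924), Zmat4 for Rorb (0.893), Phtf1 for Lamp5 (0.920) and the dorsal forebrain factor Lhx2 for Nrgn (0.960). None of these 17 genes was called in SCA3 cortex.

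Outside the cortex the members no longer moved as 1 group. In striatum the correlation within pairs ran from −0.82 (Rorb and Lamp5) to 0.95 (Lamp5 and Nrgn), and only 15 of 21 pairs were positive. Slc17a7, Neurod6 and Neurod2 stayed together (r 0.84 to 0.95), Cux2 went with Rorb (0.75), and Lamp5 with Nrgn. In brainstem Slc17a7, Neurod6 and Neurod2 again had r of 0.94 to 0.96, while Rorb ran against them (−0.85 to −0.90) and Lamp5 against Cux2 (−0.85) and Nrgn (−0.74). In cerebellum Slc17a7 and Neurod2 had an r of 0.91, and Nrgn ran against both (−0.87 and −0.90). The pairs of Slc17a7, Neurod6 and Neurod2 were the only ones with an r above 0.7 in all 4 regions.

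**Figure D4:**
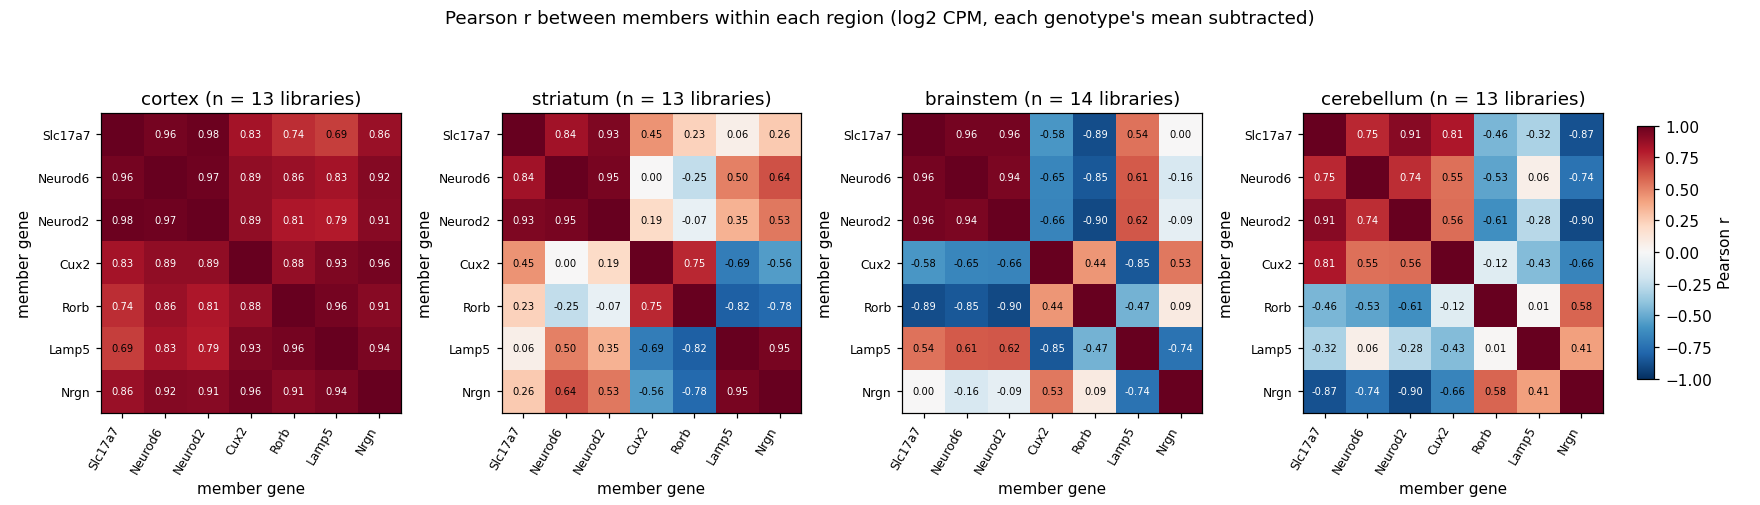
Pearson r between the log2 CPM of members within each region after subtracting each genotype's mean (13, 13, 14 and 13 libraries); red is positive and blue negative. All 21 pairs are positive in cortex, whereas 15 are positive in striatum and 10 in each of brainstem and cerebellum.

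In striatum none of the 7 members was called in SCA3 against wild-type, where 7.54% of all genes were called; 2 members, Cux2 and Rorb, had an unadjusted p below 0.05, as had 2874 of 12372 genes. Quasi-likelihood, DESeq2 and limma-voom also called 0. Cux2 was at 16.2, 18.4, 20.8, 21.5 and 29.6 CPM in the 5 SCA3 libraries and at 16.2 to 56.3 CPM in the 8 wild-type libraries (median 28.4), a difference of −0.55 on the log2 scale (SE 0.21, FDR = 0.089). Rorb was at 20.3, 20.5, 21.8, 30.1 and 36.7 CPM in SCA3 and 20 to 92.7 CPM in wild-type (median 27.6), with −0.64 (SE 0.28, FDR = 0.15, and −0.79 to −0.34 with 1 mouse left out). Every SCA3 value of both genes lay within the wild-type range, to the digits given. The wild-type libraries with the most thalamus markers, 7267058 and 7267059, held 39.3 and 56.3 CPM of Cux2. Without the libraries high in thalamus markers the log2 fold changes were −0.27 for Cux2 (FDR = 0.56) and −0.16 for Rorb (FDR = 0.77). Cux2 was called when wild-type 9082857 (−0.65, FDR = 0.022), wild-type 9083371 (−0.64, FDR = 0.031) or SCA3 9083514 (−0.70, FDR = 0.039) was left out, and in no other fit.

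The postsynaptic and membrane members pointed the other way in striatum. Lamp5 was at 79.3, 91.0, 104, 107 and 113 CPM in SCA3 and at 31.6 to 96.7 CPM in wild-type striatum (median 65.1), 0.64 higher on the log2 scale (SE 0.58, FDR = 0.52). Fitted in striatum alone, the Lamp5 difference was 0.64 with an SE of 0.235 and a 95% interval of 0.178 to 1.098 (edgeR FDR = 0.181), the one interval of a member that left out 0 when each region was fitted alone. Nrgn was at 499, 688, 849, 874 and 883 CPM in SCA3 and at 144 to 877 CPM in wild-type striatum (median 427), with 0.65 (SE 0.64, FDR = 0.56). The groups overlapped in both genes, although 3 SCA3 libraries exceeded every wild-type library in Lamp5 and 1 did in Nrgn. The lowest Nrgn, 144 and 177 CPM, was again in wild-type 7267059 and 7267058. Over the 13 striatum libraries the thalamus markers had an r of 0.92 with Rorb, 0.71 with Cux2, −0.92 with Lamp5 and −0.91 with Nrgn, and the markers of striatal projection neurons (11 of 14 measured, none at 0, summed level 2589.7 to 10910.0 CPM in wild-type and 6746 to 9976 CPM in SCA3) had an r of 0.94 with Lamp5 and 0.88 with Nrgn. Without the libraries high in thalamus markers the log2 fold changes were 0.52 for Lamp5 (FDR = 0.70) and 0.48 for Nrgn (FDR = 0.80). The part of striatal projection neurons was not tested.

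Slc17a7, Neurod6 and Neurod2 in striatum depended on single libraries. Slc17a7 was at 3.72, 13.9, 74.3, 167 and 617 CPM in SCA3 and 11.8 to 598 CPM in wild-type striatum (median 65.6). The highest were SCA3 9083514 and wild-type 9083375, which were also highest in Neurod6 (40.8 and 49.0 CPM) and Neurod2 (34.7 and 43.0 CPM), all within the ranges seen in cortex. The log2 fold changes were 0.25 (SE 0.68), 0.29 (SE 0.71) and 0.28 (SE 0.70). Without SCA3 9083514 they became −1.18, −0.97 and −1.04, and without wild-type 9083375 they became 1.09, 1.46 and 1.58, none of them called. The r of thalamus markers with Slc17a7 was −0.04, and without the libraries high in these markers its log2 fold change was 0.55 (FDR = 0.74).

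**Figure D5:**
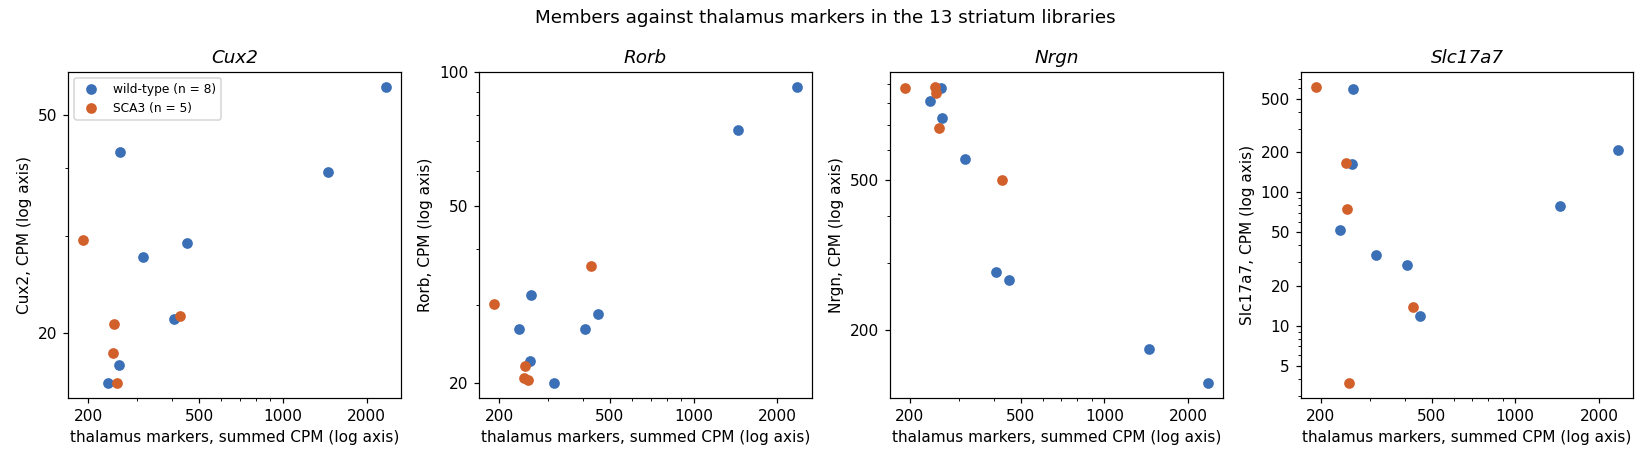
Level of Cux2, Rorb, Nrgn and Slc17a7 against the summed level of 11 thalamus markers in the 13 striatum libraries, in CPM on log axes; blue is wild-type and orange SCA3. The 2 wild-type libraries at 1449.6 and 2348 CPM of thalamus markers are the highest in Rorb and the lowest in Nrgn.

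In brainstem none of the 7 members was called and none had an unadjusted p below 0.05, beside 1.92% of all genes called and 1640 with an unadjusted p below 0.05. RIN was 6.3 to 7.6 in wild-type and 7.4 to 8.0 in SCA3 brainstem, and with RIN as a covariate 0 members were called. Slc17a7 had the largest estimate, −0.79 (SE 0.64, FDR = 0.65; −1.39 without SCA3 7267056 and −0.54 without wild-type 9083373, neither called), with 8.94 to 146 CPM in SCA3 (median 45.4, n = 6) and 9.54 to 199 CPM in wild-type (median 63.4, n = 8). Lamp5 was at 12.7 to 229 CPM in SCA3 and 19.3 to 246 CPM in wild-type brainstem (−0.35, SE 0.55; −0.62 to −0.12 with 1 mouse left out). The 3 libraries with the most thalamus markers in this region, wild-type 7267055 and SCA3 9083514 and 9083515 (786 to 889 CPM summed, against 429.6 to 738 CPM in the others), were the 3 lowest in Slc17a7 (8.94 to 11.4 CPM) and in Lamp5 (12.7 to 20.9 CPM). Without them the log2 fold changes were −0.48 for Slc17a7 and −0.0095 for Lamp5. Nrgn was at 18.4 to 230.2 CPM in wild-type brainstem, and its estimate of 0.092 became 0.97 without wild-type 9083373, which held the highest value.

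Cerebellum showed 0 called members beside 0.0647% of all genes. Lamp5 was the 1 member with an unadjusted p below 0.05 (log2 fold change 1.12, SE 0.57, edgeR FDR = 1), as had 205 of all genes; it was at 0.917 to 32.3 CPM in SCA3 (median 10.7) and 1.74 to 18.8 CPM in wild-type cerebellum (median 5.08), and the groups overlapped. Choroid plexus markers (3 of 6 measured, none at 0) summed to 19.6 to 2118 CPM in wild-type and 658 to 1998 CPM in SCA3 cerebellum, with 5 of the 7 wild-type libraries below every SCA3 library. Their mean level had an r of 0.23 with Lamp5, and their part in its difference was not tested. Nrgn was at 3.16 to 60.2 CPM in SCA3 and 3.77 to 72.5 CPM in wild-type cerebellum (−0.55, SE 0.62; −1.0 to −0.29 with 1 mouse left out). Its level had an r of 0.98 with the thalamus markers and −0.85 with the cerebellar granule cell markers over the 13 libraries. Slc17a7 (329.5 to 507 CPM in SCA3 and 283 to 497 CPM in wild-type) and Neurod2 (82.0 to 131 and 69.9 to 137 CPM) varied little by comparison, with an SD of log2 CPM of 0.28 and 0.30. The genotype effect was not called different between regions for any of the 7 members (0.218% of all genes were called, 0 members had an unadjusted p below 0.05), the smallest edgeR FDR being that of Cux2 (FDR = 0.58). Quasi-likelihood, DESeq2 and limma-voom also called 0 in brainstem, in cerebellum and between regions.

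Genes that work with the members were followed as lists. Among 21 measured further markers of cortical glutamatergic neurons (of 26 listed), 0 were called in SCA3 cortex and the median log2 fold change was 0.013; over the cortex libraries their mean level had an r of 0.94 with Slc17a7 and 0.52 with Lamp5. Calmodulin and its postsynaptic partners (18 of 18 measured) also had 0 called in cortex and a median of −0.0063, and their mean level had an r of 0.98 with the mean of the members. Genes of glutamate supply and recycling (12 of 12), bHLH partners and inhibitors (7 of 7) and the closest relatives of the members (8 of 12) likewise had 0 called in cortex, with medians of −0.015, 0.054 and 0.017. The smallest p in each of these 3 lists was at Glul, the glutamine synthetase of astrocytes (−0.21, FDR = 1), Tcf12, a bHLH partner (0.25, FDR = 0.40) and Slc17a6, the second vesicular glutamate transporter (−0.56, FDR = 1). The remaining lists, of other cell types, also had 0 called in cortex.

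In striatum some of these genes were called, beside 7.54% of all genes. Tle4, a corepressor of deep-layer neurons, rose (0.43, SE 0.11, FDR = 0.0039), the only one of the 21 further cortical markers that was called. Its mean in wild-type mice was 107.4 CPM in striatum and 71.9 CPM in cortex, so its level was not higher in cortex. Among the calmodulin partners Camk4 rose (0.60, FDR = 0.023) and Camk2d fell (−0.81, FDR = 0.043). Glul fell (−0.45, FDR = 0.0016), as did the amino acid transporter Slc38a1 (−0.40, FDR = 0.028) and, among the relatives of the members, Slc17a6 (−2.48, FDR = 0.032), while 0 of 7 bHLH partners were called. Slc17a6 is also a thalamus marker and was at 315 and 291 CPM in wild-type 7267058 and 7267059, against 1.94 to 113 CPM in the other striatum libraries. Of the thalamus markers 7 of 11 were called lower, of the oligodendrocyte markers 6 of 12, of the astrocyte markers 6 of 12, of the granule cell markers 3 of 7 and of general neuron markers 3 of 12; of cortical interneuron markers 0 of 9 were called. Of striatal projection neuron markers 0 of 11 were called, while all 11 had positive estimates (median log2 fold change 0.47). Without the libraries high in thalamus markers 76 genes were called higher and 271 lower over all genes, against 933 in either direction with them. The lower calls of these lists then numbered 3, 3, 2, 2 and 1, Slc17a6 (−2.81, FDR = 0.013) and Glul (−0.37, FDR = 0.033) were still called, and Tle4 (0.30, FDR = 0.054), Camk4 (0.57, FDR = 0.11), Camk2d (−0.85, FDR = 0.12) and Slc38a1 (−0.34, FDR = 0.062) were not.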

How the data were processed

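Raw read counts per gene, deposited by the authors as whole numbers with 1 column per library, were analysed. Per the study's methods, the authors prepared poly-A libraries without strand information, trimmed paired reads (cutadapt 1.10), aligned them to GRCm38 with STAR 2.3.0e keeping unique hits, counted them per RefSeq gene with HTSeq 0.6.1 regardless of strand, and kept genes averaging above 4 CPM (here 12372, lowest mean 4.07 CPM). Depth was 31.7 to 76.7 M counts per library. Groups came from the sample labels.

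Counts were fitted with edgeR 4.0.16 (R 4.3.3) after TMM normalisation: 53 libraries, 8 groups of region and genotype, likelihood ratio test as in the study, Benjamini-Hochberg over all genes, FDR 0.05. The 3 interactions of region and genotype were tested together. SEs come from this model unless a fit of 1 region alone is named; 95% intervals come from the fit named beside them. CPM used TMM-adjusted totals, and logs a prior count of 2. The scripts were tested on simulated data. Alternatives were DESeq2 1.42.0, the quasi-likelihood test of edgeR, voom in limma 3.58.1, RLE factors, a minimum of 10 counts, RIN (covariate, or at least 7), mouse number series, compared regions alone, the mouse as a block and leaving out each mouse.

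The same mice gave the libraries of all regions, so the mouse pairs them: deviations from group means correlated within mice with mean r of 0.0904 to 0.186 over pairs of regions (12 or 13 mice each). Genotype does not vary within a mouse. Nothing states that mice came from separate litters, so p-values measure the spread between mice as sampled.

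Members and lists were chosen with earlier results of these data known. Named beyond the members were, by rule, the genes most like them and those of smallest p in each list in cortex and striatum; other genes were named after their values were seen. Sequences and positions come from RefSeq and exon lengths from GENCODE vM21. Results for some genes are not reported here.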

Additional observations from a re-analysis of the deposited data

Results flagged for a closer look

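Among 56 groups of a member, region and genotype, 1 library stood far from the rest of its group by Dixon's gap test at 95%, and chance flags about 1 group in 20. Wild-type brainstem 7267055 held 9.54 CPM of Slc17a7, and the other 7 libraries held 51.1 to 199 CPM, so that the gap covered a share of 0.552 of the group's range of log2 CPM. The same library had the most thalamus markers of the wild-type brainstem group (847 CPM summed), and was low in Neurod2 (1.80 CPM) and Lamp5 (19.3 CPM) and high in Rorb (50.1 CPM). No member's genotype effect was called different between regions.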

How the results depend on the processing

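Over all alternatives and left-out mice, 0 members were called in SCA3 cortex, brainstem or cerebellum; in striatum the count ran from 0 to 1 when a mouse was left out. Restricted to the largest mouse number series, 1 member rather than 4 was called higher in wild-type cortex than striatum, and 5 of the neighbouring regions rather than 8 were called. Directions that turned had an FDR of 0.32 or above. In cortex, Slc17a7 turned with the mouse as a block (−0.0081) and with RIN as a covariate (−0.072), and Neurod6, itself near 0, with DESeq2 and RLE factors (0.0034 each), voom (0.18, and 0.19 with the block), the largest series (0.36) and without the libraries high in thalamus markers (0.01). Slc17a7 in striatum turned under voom (−0.51, and −0.49 with the block). In brainstem, Neurod2 turned with the series as a covariate (0.037), Rorb in the largest series (0.13) and Nrgn with RIN as a covariate (−0.19), at RIN of at least 7 (−0.036), in the largest series (−0.36) and without libraries high in thalamus markers (−0.13). In cerebellum, Cux2 (0.093) and Rorb (0.18) turned in the largest series. The cause was not tested.

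Leaving out 1 mouse at a time, the cortex log2 fold change ranged from −0.13 to 0.19 for Slc17a7, −0.27 to 0.21 for Neurod6, −0.051 to 0.40 for Neurod2, −0.043 to 0.19 for Cux2, −0.32 to 0.084 for Rorb, −0.26 to 0.36 for Lamp5 and −0.18 to 0.35 for Nrgn. Ranges that spanned 0 elsewhere were −1.18 to 1.09 (Slc17a7), −0.97 to 1.46 (Neurod6) and −1.04 to 1.58 (Neurod2) in striatum, −0.27 to 0.97 for Nrgn in brainstem, −0.082 to 0.016 for Cux2 in cerebellum, and −0.14 to 0.40 for Rorb between wild-type cortex and striatum. Pairing libraries by mouse moved no count of calls by over 1.5 times: with the block, voom called 4, 5 and 5 members higher in cortex than in striatum, brainstem and cerebellum, and 0 by genotype. Every member had at least 14 counts in each library.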

Other observations

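Of 12 measured genes of glutamate supply and recycling, 2 fell in SCA3 brainstem, where 1.92% of all genes were called, and the median log2 fold change of the 12 was −0.032: Slc1a2, the main glutamate transporter of astrocytes, was at 2439 ± 513 CPM in wild-type (SD, n = 8) and 1376 ± 160.1 CPM in SCA3 brainstem (n = 6; log2 fold change −0.83, edgeR FDR = 2.4e-08), and Glul at 1869 ± 199 and 1208 ± 121 CPM (−0.63, FDR = 9.7e-08). Both are also expressed by astrocytes, whose markers fell in 4 of 12 cases in this region, Slc1a2 among them, and 4 of 12 mature oligodendrocyte markers fell as well. Without the libraries high in thalamus markers 2 of the 12 glutamate genes, 3 astrocyte markers and 3 oligodendrocyte markers were called lower, as were 82 of all genes, with 59 called higher. RIN differed between the groups in brainstem, at 6.3 to 7.6 in wild-type (mean 7.24) and 7.4 to 8.0 in SCA3 mice (mean 7.78), and its part in these differences was not tested.

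The following values were chosen after they were seen. Pvalb, which marks a class of cortical interneurons, was at 59.7 to 71 CPM in the same 4 cortex libraries that were high in Lamp5, and at 9.63 to 18.6 CPM in the other 9. Gad1, also an interneuron marker, was not raised in these 4 libraries, at 422 to 487 CPM against 342 to 699 CPM in the other 9. The summed cortical interneuron markers were at 1368 to 1493 CPM in the 4 and at 1286 to 2076 CPM in the other 9. Fibcd1, a hippocampus marker, was at 82.3 CPM in wild-type cortex 7267058 and at 7.69 to 19.1 CPM in the other 12 cortex libraries. The sum of the 3 measured hippocampus markers did not single out this library. It was 322 CPM there, 334 CPM in wild-type 9083371 and 366 CPM in SCA3 9083513. Their mean log2 level, Fibcd1 included, was highest in wild-type 7267058.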
